A study of Mus musculus with 3 samples.

Results

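A group of 10 genes of bone morphogenetic protein (BMP) signalling were followed in mouse embryoid bodies: the ligands Bmp2, Bmp4 and Bmp7, the secreted antagonists Nog, Chrd, Fst and Grem1, and the inhibitors and target genes Bambi, Id1 and Smad6. They were chosen by gene name for their role in the pathway, and all 10 had at least 1 probe on the array, 12 probes in all. Of these, 9 probes for 9 genes passed the filter on dim spots, out of 20389 genes tested in the whole series, and Bambi did not pass. Embryoid bodies are clumps of embryonic stem cells grown unattached, in which cells of many types arise when the medium lacks LIF, a cytokine that keeps stem cells undifferentiated. The wild-type group was compared with Dido3deltaCT+HADido3CT embryoid bodies, in which the Dido3 protein is truncated at its C-terminal end and the missing region, encoded by exon 16, is overexpressed. This second group is called mutant+CT. Both groups were kept without LIF in low attachment plates and collected at day 10. Each of 3 two-colour arrays carried RNA of 1 wild-type and 1 mutant+CT biological replicate, and the dyes of the groups were exchanged on replicate 2, where wild type was in Cy3. No group carried the truncation alone or the overexpressed region alone, so their effects cannot be told apart, and the labels give neither the cell lines, the number of clones nor the promoter of the construct. Since replicate 2 alone had these dyes, its own differences and effects of the dye cannot be told apart.

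BMPs are secreted dimers of the TGF-beta superfamily that bind type I and type II receptor kinases. The receptors phosphorylate Smad1, Smad5 and Smad9, which join Smad4, enter the nucleus and switch on genes such as the Id family, while Smad6, Smad7 and Bambi are induced as brakes on the same signal. Noggin (Nog), chordin (Chrd), follistatin (Fst) and gremlin (Grem1) act outside the cell by holding ligands away from the receptors, Fst mainly by binding activins. In the early embryo BMP signals favour mesoderm and epidermis, and their antagonists allow neural tissue to form.

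The probes that read the antagonists Nog and Chrd are shown because only these had at least 2 reading frames free of stop codons. The 2 genes share a role but not a pattern: Nog was lower in mutant+CT on every array and Chrd was not. Both probes are 60 bases long, are written 5′ to 3′ on the strand of the gene and hold 55.0% G and C. The Nog probe lies at chr11:89162849-89162908 on the minus strand of mm9, and has no stop codon in any of its 3 reading frames. The Chrd probe lies on the plus strand at chr16:20739049-20739221, and its 60 bases span 173 bases of genome, so its match is split. No annotation of mm9 was used, and the exons of the probes are therefore not given. No letter is in capitals because no part of a probe is singled out.
Nog probe: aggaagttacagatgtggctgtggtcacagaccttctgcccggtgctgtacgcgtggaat
Chrd probe: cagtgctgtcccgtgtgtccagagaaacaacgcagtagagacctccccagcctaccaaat

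The share of spots well above background was 68.1% to 78.5% per channel, and no spot was saturated. The 4 probes of Dido1, the gene that encodes Dido3, had mean log2 ratios (mutant+CT to wild type) of 3.53, 1.79, 0.77 and -2.39, and only the first passed the test over kept probes (limma, adjusted p = 0.0435). Their place relative to the truncation was not determined. Brightness is given below as the mean of the spot in scanner units, before background and dye correction, and ratios as the log2 ratio of mutant+CT over wild type after both. Values are mean ± SD over the 3 arrays, and the number of arrays limits the precision. Brightness is not compared between probes. The adjusted p is from limma's moderated test over all 20389 genes with Benjamini-Hochberg adjustment at a threshold of 0.05, which 0% of all genes passed and 15.7% had an unadjusted p under 0.05. In bulk RNA, fewer cells of a type and less RNA per cell cannot be told apart.

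Of the 9 genes tested, 0 passed the adjusted threshold and 2, Nog and Fst, had an unadjusted p under 0.05 (15.7% of all genes). Nog and Fst were at least 2-fold lower in mutant+CT on all 3 arrays, a pattern seen in 0.991% of all genes. No gene of the 9 was at least 2-fold higher on all 3 arrays, against 1.9% of all genes. Bmp2, Nog and Fst were lower on every array (17.4% of all genes), Bmp7 was higher on every array (20.3% of all genes), and the other 5 had ratios of both signs. The median ratio of the 9 genes was 0.12 and that of all genes -0.003. From lowest to highest, the mean ratios ran Nog, Fst, Bmp2, Chrd, Id1, Bmp7, Smad6, Bmp4 and Grem1, and the array values of every neighbouring pair in this order overlapped.

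**Figure D1:**
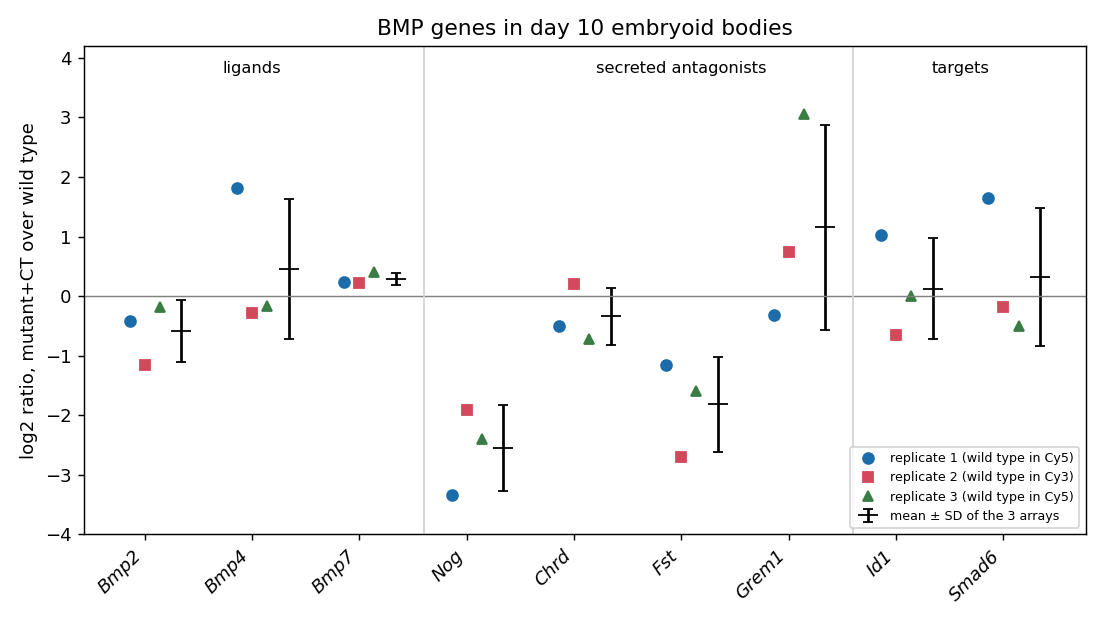
Log2 ratio of mutant+CT over wild type (y axis) for each of the 9 genes tested (x axis), grouped by role, with 1 point per array and the mean ± SD of the 3 arrays as a black bar. Nog lies between -3.33 and -1.92 and Fst between -2.70 and -1.15, while Bmp4, Grem1, Id1 and Smad6 each have 1 array above 1 and the others below it.

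No ligand passed the test, and only Bmp2 and Bmp7 had the same sign on every array. Bmp4, a ligand needed for mesoderm formation in the mouse embryo, had a brightness of 2942, 5459 and 6271 in wild type on replicates 1 to 3 and of 12070.5, 4437 and 5276 in mutant+CT (probe A_55_P2154387, minus strand, chr14:47003391-47003450). The groups overlapped, and the mutant+CT sample of replicate 1 was the brightest of the 6 samples while its wild-type partner was the dimmest. Its ratios were 1.81, -0.28 and -0.17, with a mean of 0.45 ± 1.17 (SD, n = 3) and an adjusted p of 0.726. Without replicate 1 the mean of Bmp4 turned to -0.22. The second Bmp4 probe (A_55_P1959022, minus strand, chr14:47003198-47003257) was not well above background on any array in either group.

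Bmp2, a close relative of Bmp4, had a wild-type brightness of 1676, 5303 and 2625 and a mutant+CT brightness of 1578, 2276 and 2115 (plus strand, chr2:133388260-133388319). Every array was lower in mutant+CT but the groups overlapped, since the wild-type sample of replicate 1 lay below the mutant+CT samples of replicates 2 and 3. Its ratios were -0.42, -1.17 and -0.18, with a mean of -0.59 ± 0.51 (adjusted p = 0.394, 95% interval -1.29 to 0.12). Bmp7, which is widely made by epithelia, had a wild-type brightness of 488, 1335 and 1365 and a mutant+CT brightness of 783, 1450 and 1641 (minus strand, chr2:172695203-172695262). Both samples of replicate 1 were dimmer than the rest, and the groups overlapped. The Bmp7 ratios of 0.23, 0.22 and 0.41 had the smallest spread of the 9 genes, with a mean of 0.29 ± 0.11 (adjusted p = 0.598, 95% interval -0.25 to 0.83).

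**Figure D2:**
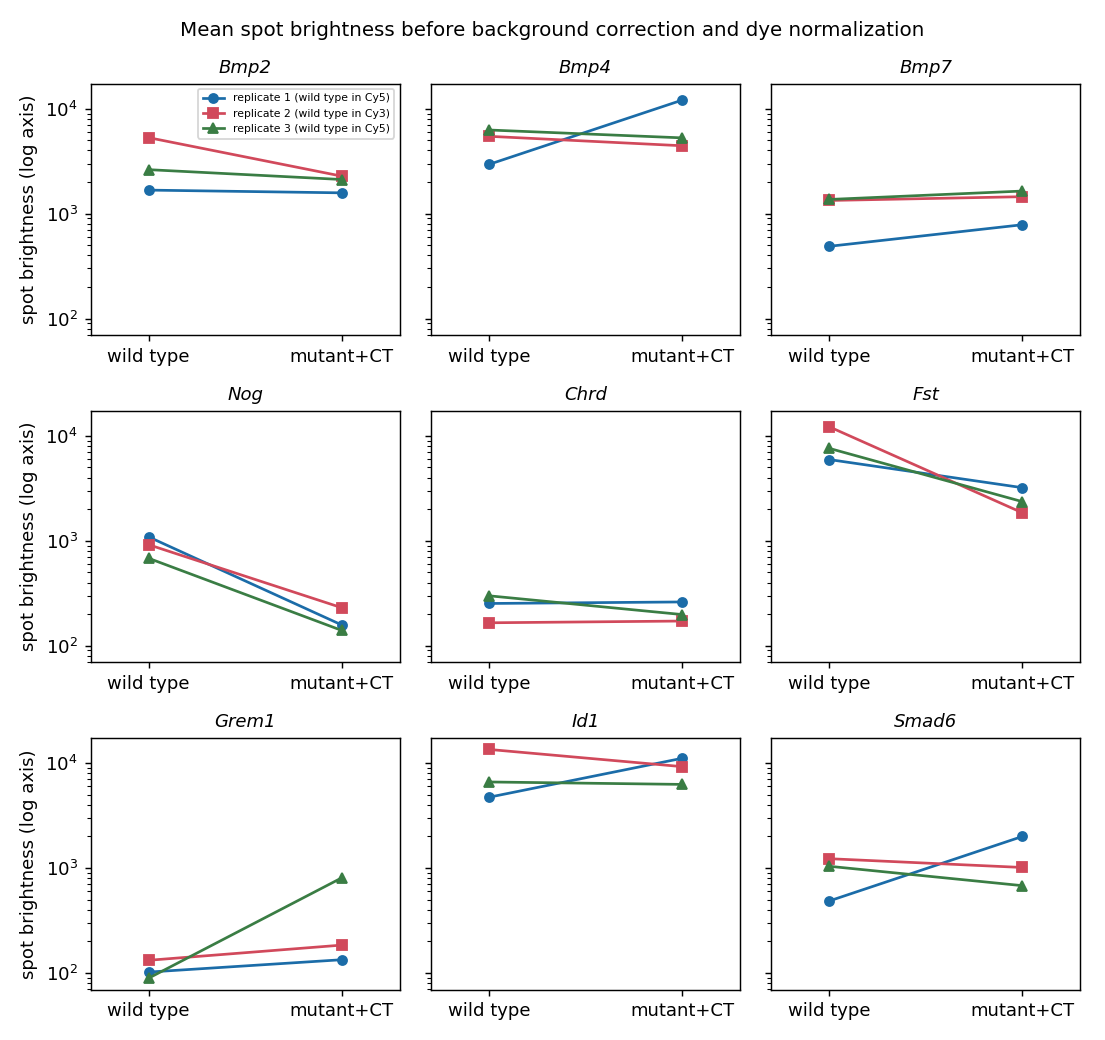
Spot brightness of each gene in wild type and mutant+CT (log axis, scanner units before background and dye correction), with a line for each array joining its 2 samples. For Nog and Fst all lines slope down, with all wild-type points above all mutant+CT points, a separation not counted over all genes. The height of a panel is not comparable between genes.

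Among the antagonists, Nog and Fst were at least 2-fold lower in mutant+CT on every array, and Chrd and Grem1 had ratios of both signs. Nog, which binds BMPs tightly and marks the notochord and dorsal neural tube of the embryo, had a wild-type brightness of 1091, 919 and 682 and a mutant+CT brightness of 158, 230 and 140. The groups did not overlap in this uncorrected brightness, and every sample of both groups was well above background. How many of all genes separate in this way was not counted. The Nog ratios were -3.33, -1.92 and -2.40, with a mean of -2.55 ± 0.72 (SD, n = 3), or 5.86-fold lower. Its 95% interval was -3.39 to -1.71 and its adjusted p 0.0844, which missed the threshold, while its unadjusted p of 0.000489 ranked 118 among all genes. Over kept probes in place of genes its adjusted p was 0.0626. On Agilent's processed signals the Nog ratio was -3.41 and passed (limma, adjusted p = 0.0414), as it did with a trended and robust variance prior (adjusted p = 0.0457), settings that called 290 and 176 of all genes. With a dye term the adjusted p was 0.175, with no filter on dim probes 0.166, and without replicate 2 or replicate 3 it was 0.150 and 0.189.

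Fst, which neutralises activins and binds some BMPs, had a wild-type brightness of 5953, 12237 and 7616 and a mutant+CT brightness of 3209, 1852 and 2363 (minus strand, chr13:115243565-115243624). The groups did not overlap in this uncorrected brightness, a separation not counted over all genes. On the dye-swapped replicate 2 the wild-type sample was the brightest and the mutant+CT sample the dimmest. The Fst ratios were -1.15, -2.70 and -1.59, with a mean of -1.81 ± 0.80, or 3.52-fold lower. Its 95% interval was -2.71 to -0.92, and its adjusted p of 0.121 missed the threshold. The arrays did not rank these genes alike: replicate 1 held the lowest Nog ratio and the ratio of Fst nearest to 0, and replicate 2 the reverse.

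Chrd, a large antagonist that is cut by the protease tolloid, had a wild-type brightness of 253, 165 and 299 and a mutant+CT brightness of 261, 172 and 198. The groups overlapped, and the ratios of -0.50, 0.20 and -0.72 had a mean of -0.34 ± 0.48 (adjusted p = 0.626), which was -0.61 without replicate 2 and -0.15 without replicate 3. The second Chrd probe (A_55_P2164689, plus strand, chr16:20738166-20738225) was not well above background on any array in either group. Grem1, an antagonist of Bmp2 and Bmp4 known from the limb bud, had a wild-type brightness of 102, 132 and 88.9 and a mutant+CT brightness of 133, 184 and 805 (minus strand, chr2:113589227-113589286). Only the mutant+CT sample of replicate 3 stood clear of the others. The Grem1 ratios of -0.32, 0.74 and 3.05 had a mean of 1.15 ± 1.72 (adjusted p = 0.474), and without replicate 3 the mean was 0.21.

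The intracellular brake Smad6 and the target gene Id1 had, like Bmp4, their highest ratio on replicate 1, and neither passed the test. Smad6, which blocks the activated type I receptor and Smad1, had a wild-type brightness of 484, 1226 and 1038 and a mutant+CT brightness of 1996, 1011 and 678 (minus strand, chr9:63800980-63801039). Its replicate 1 held both the brightest and the dimmest sample, and the groups overlapped. The Smad6 ratios of 1.65, -0.19 and -0.50 had a mean of 0.32 ± 1.16 (adjusted p = 0.821), which turned to -0.35 without replicate 1.

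Id1, a direct BMP target that holds back bHLH factors, had a wild-type brightness of 4719, 13493 and 6603 and a mutant+CT brightness of 11095, 9248 and 6260 (plus strand, chr2:152563083-152563142). Its groups overlapped, with mutant+CT brighter on replicate 1 and dimmer on replicate 2. The Id1 ratios of 1.03, -0.66 and 0.00 had a mean of 0.12 ± 0.85 (adjusted p = 0.922), which turned to -0.33 without replicate 1 and to -0.072 with a dye term in the model. Bambi, a membrane pseudoreceptor that blocks the receptor complex, was not well above background on any array in either group. Its brightness was 53.0, 86.6 and 58.6 in wild type and 96.0, 46.2 and 87.1 in mutant+CT, and it was not tested.

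For the genes tested, the pathway gene with the most similar ratios was found by the root mean square difference over the 3 arrays, among 61 other pathway genes. Bmp4 and Smad6 were each other's nearest gene, with a difference of 0.22 on the log2 scale. Chrd lay nearest to the tolloid-like protease gene Tll1 (0.19), Bmp2 to the type I receptor gene Acvr1 (0.24), Bmp7 to Pmepa1 (0.26) and Id1 to the ubiquitin ligase gene Smurf2 (0.33). Tll1 was dim, well above background in only 2 of the 3 mutant+CT samples. A second Pmepa1 probe, not used for this, had ratios of 0.52, 0.36 and 0.46. Nog had no such close partner, its nearest being the antagonist gene Sostdc1 at 0.95, and Grem1 lay nearest to Fstl3, a follistatin relative, at 1.03. With 3 arrays these likenesses are a description.

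The promoters of Bmp4 and Smad6 are shown because these genes were each other's nearest, beside those of Id2 and Id4, which were lower on every array. Id3 was lower on every array as well, but its promoter is not printed and held no match to the hexamer marked below. Each is the 250 bases before the gene's start, 5′ to 3′ on the strand of the gene, from RefSeq on GRCm38.p6. They lie at chr14:46390670-46390919 for Bmp4 (minus strand), chr9:64022060-64022309 for Smad6 (minus), chr12:25096093-25096342 for Id2 (minus) and chr13:48260866-48261115 for Id4 (plus). Capitals mark GGCGCC, a GC-rich hexamer known to bind BMP-activated Smads, which reads the same on both strands.
Bmp4 promoter: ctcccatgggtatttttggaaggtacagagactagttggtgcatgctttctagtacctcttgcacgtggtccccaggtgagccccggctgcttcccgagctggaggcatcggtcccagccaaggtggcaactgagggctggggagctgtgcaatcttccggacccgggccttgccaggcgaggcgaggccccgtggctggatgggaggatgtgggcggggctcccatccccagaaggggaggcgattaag
Smad6 promoter: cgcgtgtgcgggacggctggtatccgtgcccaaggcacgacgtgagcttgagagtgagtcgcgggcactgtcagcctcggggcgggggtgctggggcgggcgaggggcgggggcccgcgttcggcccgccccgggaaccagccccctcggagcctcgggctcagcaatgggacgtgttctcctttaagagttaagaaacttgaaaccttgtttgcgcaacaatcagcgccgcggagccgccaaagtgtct
Id2 promoter: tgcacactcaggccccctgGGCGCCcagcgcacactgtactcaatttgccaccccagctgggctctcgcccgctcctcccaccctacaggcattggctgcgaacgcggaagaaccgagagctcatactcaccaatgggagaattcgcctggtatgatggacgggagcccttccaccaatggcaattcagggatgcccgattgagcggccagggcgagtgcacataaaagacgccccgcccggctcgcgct
Id4 promoter: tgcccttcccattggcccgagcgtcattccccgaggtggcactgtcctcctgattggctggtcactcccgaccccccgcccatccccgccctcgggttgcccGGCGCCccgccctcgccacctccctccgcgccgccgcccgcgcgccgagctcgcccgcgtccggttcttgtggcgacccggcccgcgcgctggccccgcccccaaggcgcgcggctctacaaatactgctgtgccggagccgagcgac
GGCGCC was at -231 in Id2 and at -148 in Id4, counted from the gene's start, and had no match in these windows of Bmp4 and Smad6. Chrd (-203) and Grem1 (-78) held a match as well. The windows of Id3 and Bmper, genes that were also lower on every array, held none. By comparison, 9.59% of 32851 promoters of this length held it. The palindrome GTCTAGAC, a Smad-binding element, was in 0.17% of these promoters and in none of the 8 examined, and the E-box CANNTG, a bHLH site, was in 66.22% of them, with 3 matches in Bmp4 and 1 in Id2. In Id2, the only one of the 8 that held both, the E-box and GGCGCC did not overlap. These matches describe sequence and not binding. The 8 windows held 62.8% to 78.0% G and C, and the shares over all promoters were not matched for this. No promoter of Bmp2, Bmp7, Nog, Fst or Id1 was available here, so these genes were not examined.

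Of 60 further genes of the pathway, 53 were tested. Of these, 14 were lower on every array, against 17.4% of all genes, and 9 were higher, against 20.3%. None passed the adjusted threshold, and their median ratio was -0.11. The lowest mean ratios of the pathway were those of the antagonist genes Nog, Bmper and Sostdc1, and the highest that of the inhibitor gene Smad7 (1.95). With Nog, Chrd, Fst and Grem1 included, 19 of 20 antagonists were tested, and their median was -0.29. Of the 19, 7 were lower on all 3 arrays (17.4% of all genes), 3 were higher (20.3%) and 3 were at least 2-fold lower on every array (0.991%). Beside Nog and Fst the third was Bmper, which encodes a BMP-binding endothelial regulator, with ratios of -1.27, -2.32 and -2.73 and a mean of -2.11 ± 0.75 (adjusted p = 0.0985). Sostdc1, an antagonist of BMP and Wnt signals, had ratios of -2.33, -0.75 and -2.98 (limma, adjusted p = 0.149). It was well above background in only 2 of the 3 mutant+CT samples, and its second kept probe had -1.65, -0.34 and -2.62. The antagonists higher on every array, named after their values were seen, were Dand5 (1.12, 1.80 and 0.89), Fstl3 (0.75, 0.90 and 1.62) and Chrdl2 (0.60, 0.59 and 0.85).

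**Figure D3:**
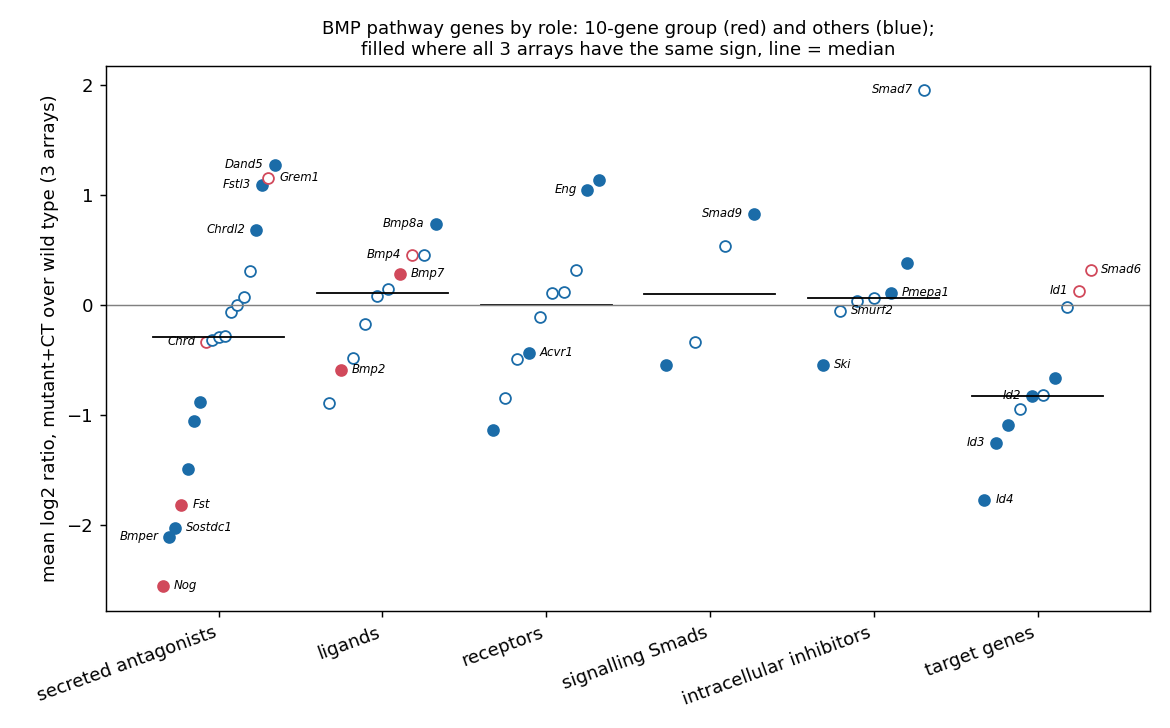
Mean log2 ratio of mutant+CT over wild type (y axis, 3 arrays) for the tested genes of the pathway in 6 role groups (x axis), with the group median as a line and filled points where all 3 arrays have 1 sign. The antagonists reach from -2.55 for Nog to 1.27 for Dand5, and the Id genes other than Id1 lie below 0.

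The mean ratios of ligand genes outside the 10 ran from -0.89 to 0.73, and those of receptor genes from -1.14 to 1.14. Of 11 further ligand genes 7 were tested, with a median of 0.08, and the smallest p was that of Bmp8a (0.21, 0.73 and 1.25; adjusted p = 0.303). Of 11 receptor and co-receptor genes 10 were tested, with a median of 0.00, and 2 were higher and 2 lower on every array, close to the shares of 20.3% and 17.4% over all genes. Eng, the endothelial co-receptor endoglin, had the smallest p among them, with ratios of 0.86, 1.11 and 1.16 (mean 1.04 ± 0.16, adjusted p = 0.132). All 4 signalling Smads were tested, and Smad9 had the smallest p (1.17, 0.71 and 0.61; adjusted p = 0.203).

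Among 7 further intracellular inhibitors, the smallest p was that of Ski, a corepressor of Smads (-0.61, -0.53 and -0.48; adjusted p = 0.314). Smad7, the partner of Smad6 as inhibitory Smad and named here after its values were seen, had ratios of 3.01, -0.64 and 3.47 with an adjusted p of 0.351. Smad6 and Smad7 were thus both well above 0 on replicate 1, and on replicate 3 Smad7 was above 0 and Smad6 below it. Of the proteases 2 of 3 were tested, and Tll1, with the smaller p, had -0.29, 0.11 and -0.49.

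All 8 other target genes were tested. Of them 5 were lower on all 3 arrays, against 17.4% of all genes, and 0 were higher, against 20.3%, and their median was -0.89. Id4, with the smallest p, had ratios of -2.16, -0.49 and -2.66 (mean -1.77 ± 1.14, adjusted p = 0.178). Id2 had -0.47, -0.54 and -1.47 and Id3 -1.01, -0.02 and -2.73, named as members of the Id family. In the Id family 3 of 4 genes were lower on every array and Id1 was not, and the difference between Id1 and the other Id genes was not tested.

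Several of these ratios had the same sign by array as the medians of cell type markers, though the order of the arrays could differ. The 9 neural progenitor markers, among them Pax6 (-3.76, -1.66 and -4.17) and Sox1 (-4.31, -1.61 and -3.40), had medians of -3.76, -1.61 and -4.13 on replicates 1 to 3. Of the 9, 7 were lower on every array (17.4% of all genes), as Nog and Id4 were. Sox2 (-0.51, 0.26 and 0.73) and Nes (-1.06, 0.11 and -2.89) had ratios of both signs. The median was lowest on replicate 3, the Nog ratio on replicate 1 and the Fst ratio on replicate 2. Summed levels of markers are on a linear scale after loess and a further normalization of mean intensity between arrays. For the 9 neural markers they were 27385, 4875 and 41515 in wild type on replicates 1 to 3. In mutant+CT they were 8297, 3598 and 9468, so the wild-type sum of replicate 2 lay below those of mutant+CT on replicates 1 and 3. All 9 were above background on every wild-type array. The part of neural cells in the Nog ratio was not tested.

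The 9 mesenchyme markers, among them Col1a1 (4.73, -3.23 and 0.41) and Col1a2 (3.30, -1.86 and 0.34), had medians of 4.39, -1.86 and -1.15, and the 9 cardiomyocyte markers, among them Nkx2-5 (1.69, -0.87 and -0.73) and Tnnt2 (3.78, 1.18 and -0.26), had 3.78, -0.87 and -1.41. Like Bmp4, Smad6 and Id1, the medians of both lists were above 0 on replicate 1 alone, though Id1 was at -3.1e-05 on replicate 3. How many of all genes have this pattern was not counted, and 12694 of 20389 were neither higher nor lower on every array. In each list 1 gene was lower on every array (17.4% of all genes). These were Pdgfra (-0.45, -1.45 and -1.29) in mesenchyme and Gata4 (-0.70, -0.37 and -0.94) in cardiomyocytes. Of the mesenchyme markers 0 and of the cardiomyocyte markers 1 were higher on every array (20.3% of all genes). The summed mesenchyme level was 17724 to 31565 in wild type and 6077 to 257354 in mutant+CT, and the summed cardiomyocyte level was 13566 to 20993 in wild type and 7097 to 75648 in mutant+CT. All 9 mesenchyme and 8 of 9 cardiomyocyte markers were above background on every wild-type array. The part of these cells in the ratios of Bmp4, Smad6 and Id1 was not tested. Endothelial markers had medians of 1.23, -0.84 and -0.86, surface ectoderm markers 0.22, 0.46 and -0.33, and paraxial mesoderm markers 0.40, -0.01 and -0.06. Visceral endoderm markers, with Afp (2.65, 1.36 and 0.63) and Ttr (1.62, 0.90 and 0.02) among them, had medians of 1.75, 0.98 and 0.69. Of these markers 8 of 9 were higher on every array (20.3% of all genes), as Bmp7 was. Bmp7 was highest on replicate 3, where the median of these markers was lowest.

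**Figure D4:**
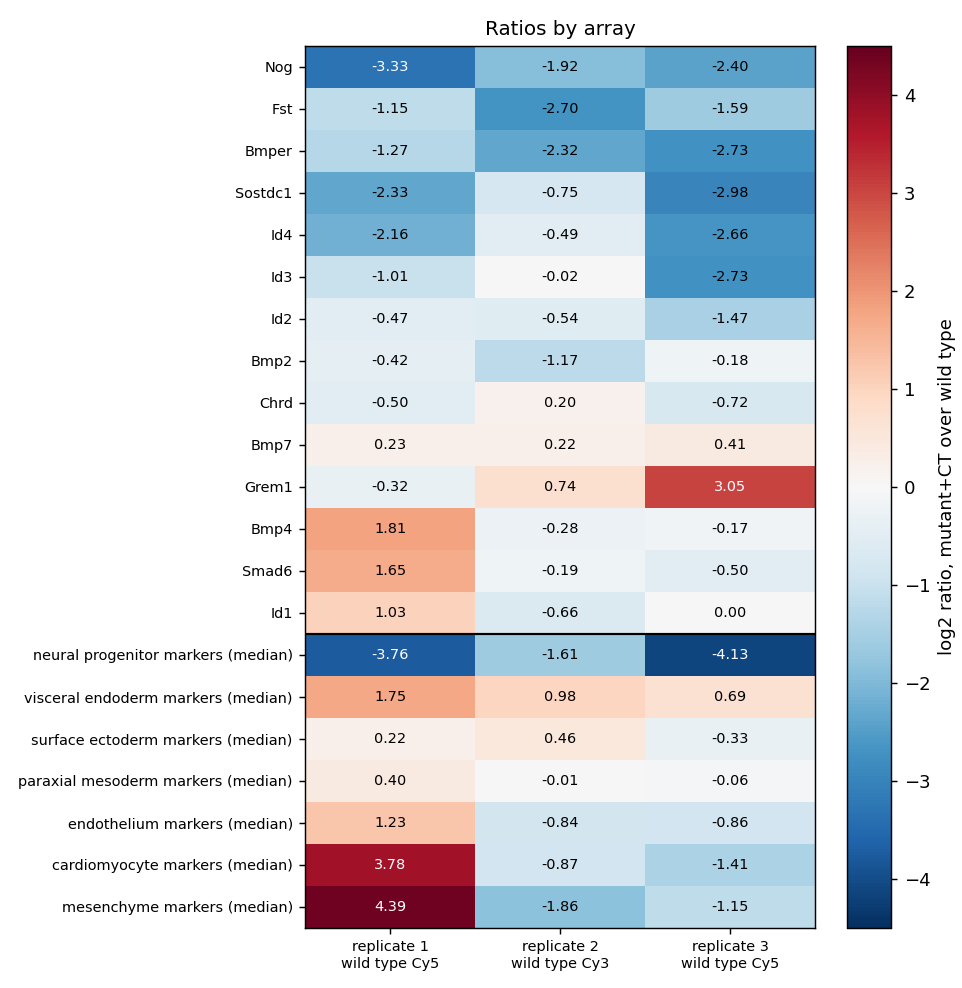
Log2 ratio of mutant+CT over wild type on each of the 3 arrays (columns) for 14 pathway genes and for the median of 7 lists of cell type markers (rows), with blue below 0 and red above. Bmp4, Smad6 and Id1 are red on replicate 1 alone, as the cardiomyocyte, mesenchyme and endothelium medians are, a pattern not counted over all genes. Id1 has no clear colour on replicate 3 (-3.1e-05). Nog and Fst are blue on all 3 arrays, as the neural progenitor median is.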

How the data were processed

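Feature Extraction files (Agilent Feature Extraction 10.7.3.1, mm9, per the file headers) held the deposited intensity of each spot and its local background in Cy3 and Cy5, and, as deposited, log10 ratios of Cy5 to Cy3, which served to settle which way the value table runs. That table held the authors' normalized log2 ratios (limma, per the submitters' processing notes; steps not given), which run as mutant+CT over wild type.

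Here, in R 4.3.3 with limma 3.58.1, intensities were corrected with normexp (offset 50) and loess within arrays. Control spots had weight 0, and outlier spots were missing. Probes well above background on all 3 arrays in either group were kept (26317 of 39429), and the brightest stood for each gene. Names came from RefSeq GRCm38.p6 by accession (27234 probes) or from the files. Ratios were tested against 0 with limma and Benjamini-Hochberg adjustment. All 3 arrays lie on 1 slide. P-values measure the spread between these replicates. The fit was tested on simulated data. Alternatives covered background, normalization, filters, probe choice, dye, variance prior, threshold and left-out arrays.

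The genes and lists were chosen with earlier results of these data known. Named were the 10 genes, in each other role list the gene with the smallest p and any at least 2-fold apart on all arrays, the nearest gene of each, and the first markers of each list. 1 result that this rule names is not reported here.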

Additional observations from a re-analysis of the deposited data

How the results depend on the processing

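Directions of Bmp2, Bmp7, Nog, Chrd, Fst and Grem1 held under each of 15 alternatives. Nog ranged from -3.41 to -2.16 (limma, adjusted p 0.0414 to 0.189) and Fst from -2.15 to -1.37 (adjusted p 0.0671 to 0.280), and both stayed at least 2-fold lower on every array. The number of the 9 genes past the adjusted threshold was 0 and became 1, Nog, with Agilent's processed signals, with a trended and robust prior and at adjusted p under 0.1; over all genes these settings called 290, 176 and 298, the filter in both channels 12 and leaving out replicate 1 147. The direction turned for Bmp4, Smad6 and Id1 without replicate 1, and leaving out 1 array in turn gave -0.22 to 0.82, -0.35 to 0.73 and -0.33 to 0.52 for them; with a dye term Id1 turned to -0.072. The cause was not tested. Leaving out 1 array in turn, 3 to 6 of the genes were lower and 1 to 2 higher on every remaining array. Bmp2 ranged from -0.79 to -0.30, Chrd from -0.61 to -0.15 and Grem1 from 0.21 to 1.89. Brightness near background limits what can be said of Bambi, of the second probes of Bmp4 and Chrd, and of Grem1. The ratio within each array pairs 1 wild-type with 1 mutant+CT sample, so every test here is a paired one.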
